A study of Aedes aegypti with 48 samples.

Results

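The comparison described here is that of Cyc knockout females with wild-type females at ZT13 (zeitgeber time 13, the sampling hour 1 h after lights off), and its members are the 11 libraries of that hour that could be used, out of 48 in the whole study. They are the 5 libraries labelled KO ZT13 replicates 2 to 6 and the 6 libraries labelled WT ZT13 replicates 1 to 6. KO is a homozygous line of Aedes aegypti, the yellow fever mosquito, that lacks a functional Cycle (Cyc) gene, and WT is the wild type, both of the Liverpool strain. Each library came from poly-A RNA of a pool of 10 whole females collected 5 days after emergence. The mosquitoes were kept at 27 °C with lights on for 12 h a day, in a cycle that included 1 h transitions for dawn and dusk. The labels give no treatment for either group. In rearing, adults had sucrose and females were also fed sheep blood, and whether the sampled females had taken blood was not stated. Since KO is a single line, a difference made by the loss of Cyc and a difference between the lines cannot be told apart, and in whole bodies fewer cells of a type and less RNA per cell cannot be told apart either.

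The circadian clock of insects is a feedback loop of transcription. CYCLE forms a dimer with CLOCK, and the dimer binds E-box elements and switches on the genes of its own repressors, which accumulate toward the night and then shut the dimer off. The same dimer drives genes that set other outputs of the day, and in Drosophila a further loop of bZIP transcription factors tunes Clock expression. Early night is the hour at which many targets of the dimer are near their peak in flies.

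The library labelled KO ZT13 replicate 1 held the same counts as WT ZT9 replicate 2 for all 19804 genes, so it was left out. Counts on genes ran from 10670669 (KO replicate 6) to 29091190 in the 5 KO libraries and from 15233447 to 27017019 in the 6 WT libraries. Levels are given as CPM (counts scaled to one common library total with TMM factors), which does not correct for gene length, so levels are compared between groups and not between genes. Genes were called at an adjusted p below 0.05 (edgeR quasi-likelihood test, Benjamini-Hochberg adjustment over 11530 tested genes), and each fold change is given as log2 of KO over WT with a standard error derived from that test.

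The labels were first checked on transcripts that separate the lines. AAEL023559, a peptidase of family M2 (the angiotensin-converting enzyme family), held 0, 0.123, 0.108, 0.0805 and 0 CPM in the KO libraries and between 28.1 and 48.8 CPM (median 38.7) in the WT libraries. Its 8 reads over all KO libraries against 4861 in WT gave a WT to KO ratio of 555 (95% counting interval 281 to 1286). The peroxisome membrane protein Pex16 gene AAEL010461 held 2 reads in KO and between 2.59 and 5.75 CPM (median 3.49) in WT. AAEL012832, a cytochrome B561, held 0.312, 0.205, 0.543, 1.09 and 0 CPM in KO and between 8.13 and 12.1 CPM (median 9.74) in WT. No KO library reached any WT library for these 3 genes. AAEL027327, annotated with a DDE superfamily endonuclease domain as in transposases, had no read in any KO library and between 0 and 1.96 CPM (median 1.43) in WT, so 1 or more WT libraries lacked it too. In the library with 2 labels AAEL023559 held 43.4 CPM and AAEL012832 held 14.47 CPM, levels of the WT kind.

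Cyc itself (AAEL002049) was still transcribed in the KO line. Its level was 30.8, 30.6, 27.6, 31.2 and 33.96 CPM in the 5 KO libraries and between 35.8 and 44.8 CPM (median 38.5) in the 6 WT libraries. Every KO library lay below every WT library, with a difference of less than 1.5-fold (log2 fold change -0.37 ± 0.07, edgeR adjusted p = 0.000979). In WT it averaged 70.6 ± 5.14 CPM at ZT1, 67.2 ± 2.39 at ZT5, 30.8 ± 1.96 at ZT9 and 40.00 ± 3.52 CPM at ZT13. In KO it averaged 37.5 ± 6.76, 32.8 ± 1.92, 28.6 ± 3.299 and 31.3 ± 2.33 CPM at those hours (means ± SD over 6 libraries, 5 in KO at ZT13). These means were scaled over 47 libraries and so differ slightly from the values above. The difference at ZT13 was thus the second smallest of the 4 hours in these means. Its departure from the mean KO effect at the other hours was 0.33 ± 0.09 on the log2 scale and did not pass the test (edgeR adjusted p = 0.192). Which part of the gene the knockout alters was not stated, so these counts do not test the knockout.

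Across the transcriptome 4095 of 11530 tested genes (35.5%) were called, 2140 higher (18.6%) and 1955 lower (17%) in KO. Most of these differences were small. Of the called genes, 3224 (78.7%) differed by less than 1.5-fold, 343 passed 2-fold (164 higher, 179 lower, 2.97% of tested genes) and 60 passed 5-fold (20 higher, 40 lower). The median log2 fold change was 0.34 among genes called higher, -0.29 among those called lower and 0.00 among all tested genes. In 2182 genes (18.9%) the 5 KO and 6 WT libraries did not overlap.

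The first principal component of the 500 most variable genes held 46.03% of the variance. All 5 KO libraries scored between 15.2 and 22.9 and all 6 WT libraries between -16.8 and -13.5 (p = 0.00216 in a two-sided exact permutation test, the smallest value possible with 462 splits).

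Most large differences at ZT13 were also present at other hours. Of the 343 genes past 2-fold, 256 were called in the same direction at ZT1, 236 at ZT5 and 248 at ZT9 in a single fit of 47 libraries, 206 at all 3 of these hours and 54 at none of them. Of all 4095 genes called at ZT13, whatever their size of change, 3219 were called in the same direction at ZT1, 2444 at ZT5 and 2970 at ZT9. Of these 4095, 1961 were so called at all 3 hours and 430 at none, so sharing was not particular to the large differences. The pools at each hour were separate, but the 2 lines were the same, so these counts also hold whatever separates the lines at every hour. The share of all tested genes called at ZT1, ZT5 and ZT9 is not given here. How far the sharing exceeds that share was therefore not tested.

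**Figure D1:**
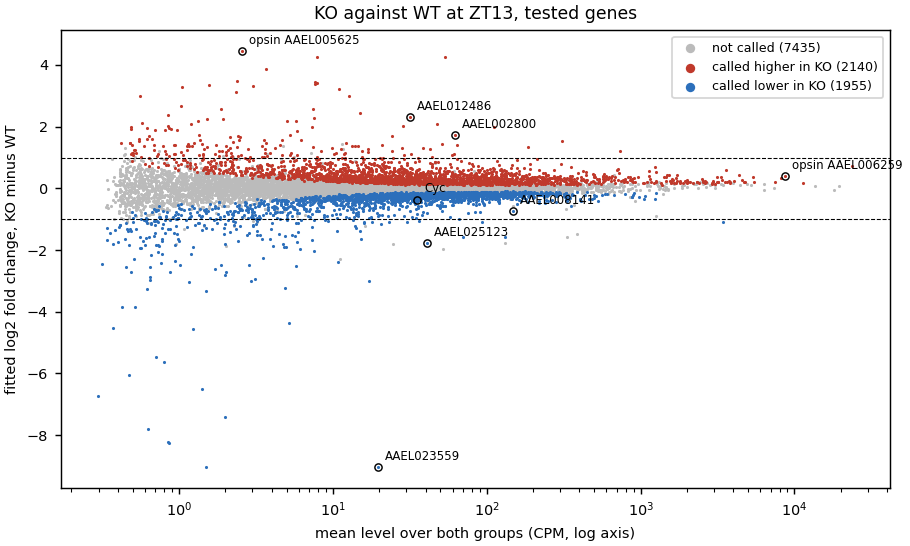
Each point is 1 of the 11530 tested genes, with its mean level over both groups in CPM on a log axis and its fitted log2 fold change of KO over WT on the vertical axis. Red points (2140) were called higher and blue points (1955) lower in KO, dashed lines mark 2-fold, and most called genes lie between them.

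To ask what was particular to the early night, the KO effect at ZT13 was compared with the mean KO effect at ZT1, ZT5 and ZT9 in a fit of 47 libraries. The effect differed in 19 of 12344 genes (0.154%), 12 with a more positive and 7 with a more negative effect at ZT13, and 17 of the 19 were also called at ZT13 itself. With DESeq2 the balance was the opposite, 17 more positive and 32 more negative. At an unadjusted p below 0.05 the count was 1016. Changes between hours within a line were not tested, and the courses over the 4 hours are given as means.

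The 5 genes of lowest p with a more positive effect, among those also called at ZT13, all had their lowest WT mean of the 4 hours at ZT13, while their KO levels stayed higher. AAEL006451, of no named product, held 41.7, 54.9, 33.7, 41.4 and 57.3 CPM in KO and between 9.19 and 13.8 CPM (median 11.01) in WT at ZT13 (log2 fold change 2.02 ± 0.13, edgeR adjusted p = 2.36e-07). The groups lay far apart, with the lowest KO library at 33.7 CPM against 13.8 CPM in the highest WT library. The WT means were 49.6 ± 2.93 CPM at ZT1, 42.5 ± 6.62 at ZT5, 21.6 ± 5.104 at ZT9 and 11.3 ± 1.55 CPM at ZT13. The KO means were 73.95 ± 12.6, 61.3 ± 10.4, 50.9 ± 4.94 and 46.5 ± 10.3 CPM at those hours. The KO effect at ZT13 exceeded that at the other hours by 1.25 ± 0.16 (edgeR adjusted p = 5.88e-06).

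AAEL012089, also without a named product, was not called at ZT5 or ZT9 in the fit of 47 libraries and was called higher in KO at ZT1 (0.38 on the log2 scale, edgeR adjusted p = 0.00279). WT pools averaged 35.3 ± 4.92 CPM at ZT1, 51.2 ± 4.31 at ZT5, 36.2 ± 5.27 at ZT9 and 10.01 ± 1.32 CPM at ZT13. KO pools averaged 45.8 ± 5.57, 47.1 ± 5.197, 35.96 ± 4.05 and 24.5 ± 4.85 CPM at those hours. Its ZT13 levels were 23.5, 28.01, 17.3, 22.9 and 29.1 CPM in KO and between 8.34 and 11.5 CPM (median 9.73) in WT (log2 fold change 1.27 ± 0.13, edgeR adjusted p = 9.69e-06). Its effect there exceeded that at the other hours by 1.20 ± 0.13 (edgeR adjusted p = 2.04e-07), the lowest p of all genes in this comparison.

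A transient receptor potential channel, AAEL005437, belongs to a family of cation channels that serve vision, hearing and temperature sensing in insects. It held 9.96, 10.2, 6.73, 8.05 and 11.6 CPM in KO and between 2.21 and 3.73 CPM (median 3.19) in WT at ZT13 (log2 fold change 1.57 ± 0.16, edgeR adjusted p = 1.23e-05), without overlap. In WT it averaged 16.8 ± 2.22 CPM at ZT1, 12.6 ± 1.32 at ZT5, 8.59 ± 1.52 at ZT9 and 3.11 ± 0.599 CPM at ZT13. In KO it averaged 20.9 ± 4.28, 15.5 ± 1.56, 11.7 ± 1.71 and 9.44 ± 1.96 CPM at those hours. The excess at ZT13 over the other hours passed the test, by 1.21 ± 0.17 (edgeR adjusted p = 1.96e-05).

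AAEL003211, a beta-carotene dioxygenase, belongs to the enzymes that cleave carotenoids to retinoids, the source of the visual chromophore. Its level was 32.6, 48.8, 29.2, 30.02 and 44.6 CPM in KO and between 9.13 and 14.4 CPM (median 10.9) in WT at ZT13 (log2 fold change 1.70 ± 0.15, edgeR adjusted p = 3.65e-06). The WT means were 43.9 ± 2.82 CPM at ZT1, 43.04 ± 3.99 at ZT5, 36.1 ± 6.57 at ZT9 and 11.4 ± 1.98 CPM at ZT13. The KO means were 98.00 ± 22.3, 67.2 ± 13.1, 49.2 ± 7.39 and 37.6 ± 9.39 CPM at those hours. It was called higher in KO at all 4 hours, and the effect was greater at ZT13 by 0.96 ± 0.17 (edgeR adjusted p = 0.00306).

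AAEL012486, of no named product, was the gene of lowest p among those called higher at ZT13, at 56.9, 53.6, 49.4, 49.4 and 54.2 CPM in KO and between 8.59 and 15.2 CPM (median 10.4) in WT (log2 fold change 2.30 ± 0.11, edgeR adjusted p = 1.35e-08). WT pools averaged 22.7 ± 4.55 CPM at ZT1, 24.7 ± 5.06 at ZT5, 20.8 ± 3.82 at ZT9 and 10.9 ± 2.37 CPM at ZT13. KO pools averaged 52.3 ± 9.14, 53.99 ± 11.3, 46.3 ± 8.54 and 53.5 ± 3.33 CPM at those hours. Its KO means stayed between 46.3 and 53.99 CPM, and the effect at ZT13 exceeded the others by 1.14 ± 0.18 (edgeR adjusted p = 0.000442).

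The clearest genes with a more negative effect had their highest WT mean at ZT13 and stood lower in KO at that hour. AAEL008141, a gene of the fly circadian rhythm pathway, held 96.8, 117, 105, 113 and 121 CPM in KO and between 176 and 191 CPM (median 184) in WT (log2 fold change -0.74 ± 0.05, edgeR adjusted p = 1.02e-06). All KO libraries were below all WT libraries. In WT it averaged 83.00 ± 8.24 CPM at ZT1, 36.5 ± 3.403 at ZT5, 82.4 ± 11.6 at ZT9 and 186 ± 5.34 CPM at ZT13. In KO it averaged 62.4 ± 8.73, 44.2 ± 4.75, 65.8 ± 9.15 and 112 ± 10.3 CPM at those hours. Its KO effect at ZT13 differed from that at the other hours by -0.57 ± 0.11 (edgeR adjusted p = 0.00417), and at ZT5 the KO level was the higher one (0.27 on the log2 scale, edgeR adjusted p = 0.0191).

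AAEL012219, which carries a cysteine-type deubiquitinase annotation, was not called between the lines at ZT1, ZT5 or ZT9 and held at ZT13 53.7, 53.2, 51.5, 52.7 and 54.1 CPM in KO and between 67.1 and 73.05 CPM (median 68.7) in WT (log2 fold change -0.38 ± 0.04, edgeR adjusted p = 7.70e-06). The WT means were 35.4 ± 2.71 CPM at ZT1, 37.2 ± 1.16 at ZT5, 37.4 ± 2.52 at ZT9 and 69.96 ± 2.21 CPM at ZT13. The KO means were 36.7 ± 1.51, 35.7 ± 1.42, 36.3 ± 0.747 and 53.8 ± 1.13 CPM at those hours. The KO mean was thus higher at ZT13 than at the other hours as well, but below that of WT, and the effects differed by -0.36 ± 0.05 (edgeR adjusted p = 1.59e-05).

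The myosin iii gene AAEL009991, whose Drosophila relative works in photoreceptors, changed sides within the day. WT pools averaged 53.9 ± 3.19 CPM at ZT1, 46.3 ± 1.66 at ZT5, 78.4 ± 11.6 at ZT9 and 107 ± 7.097 CPM at ZT13. KO pools averaged 61.7 ± 6.998, 59.97 ± 3.07, 72.9 ± 7.38 and 86.6 ± 4.86 CPM at those hours. At ZT13 the KO libraries held 88.01, 89.9, 78.9, 82.4 and 87.6 CPM and the WT libraries between 96.8 and 114 CPM with a median of 106 (log2 fold change -0.31 ± 0.05, edgeR adjusted p = 0.000747). At ZT5 KO was higher (0.37 on the log2 scale, edgeR adjusted p = 9.61e-05). The effects differed by -0.46 ± 0.08 (edgeR adjusted p = 0.00417). Another pair completed the 5 of lowest p in this direction among genes also called at ZT13, AAEL011810 (18.4 to 22.5 CPM in KO, 27.2 to 36.4 in WT, log2 fold change -0.68 ± 0.08, edgeR adjusted p = 4.53e-05), annotated to the negative regulation of biosynthesis, and AAEL010244 (92.02 to 101.3 CPM in KO, 104 to 109.5 in WT, log2 fold change -0.17 ± 0.04, edgeR adjusted p = 0.00422), which has no named product and whose difference of effects missed the threshold without KO replicate 3, 5 or 6 or WT replicate 1, 2, 3, 4 or 6 (edgeR adjusted p 0.0621 to 0.139).

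A single library carried 3 of the 12 genes with a more positive effect, which are named here after their values were seen. AAEL026300 held 70.2, 0.657, 0.868, 2.37 and 0.614 CPM in KO, AAEL025531 held 65.3, 0.739, 1.01, 1.61 and 0.614 CPM and AAEL021929 held 113, 2.46, 3.29, 5.67 and 2.05 CPM, each with KO replicate 2 at over 5 times every other library. WT lay between 0.335 and 1.14 CPM (median 0.837), between 0.942 and 1.93 CPM (median 1.24) and between 3.48 and 5.48 CPM (median 5.17) in the same order. Without KO replicate 2 none of the 3 passed, either in this comparison (edgeR adjusted p = 0.679, 0.884 and 0.918 for AAEL026300, AAEL025531 and AAEL021929) or at ZT13 itself (log2 fold changes 0.57, -0.40 and -0.45), and the comparison called 13 genes. AAEL021929 also missed the threshold without any 1 of the 6 WT libraries (edgeR adjusted p up to 0.111 here and 0.0792 at ZT13).

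**Figure D2:**
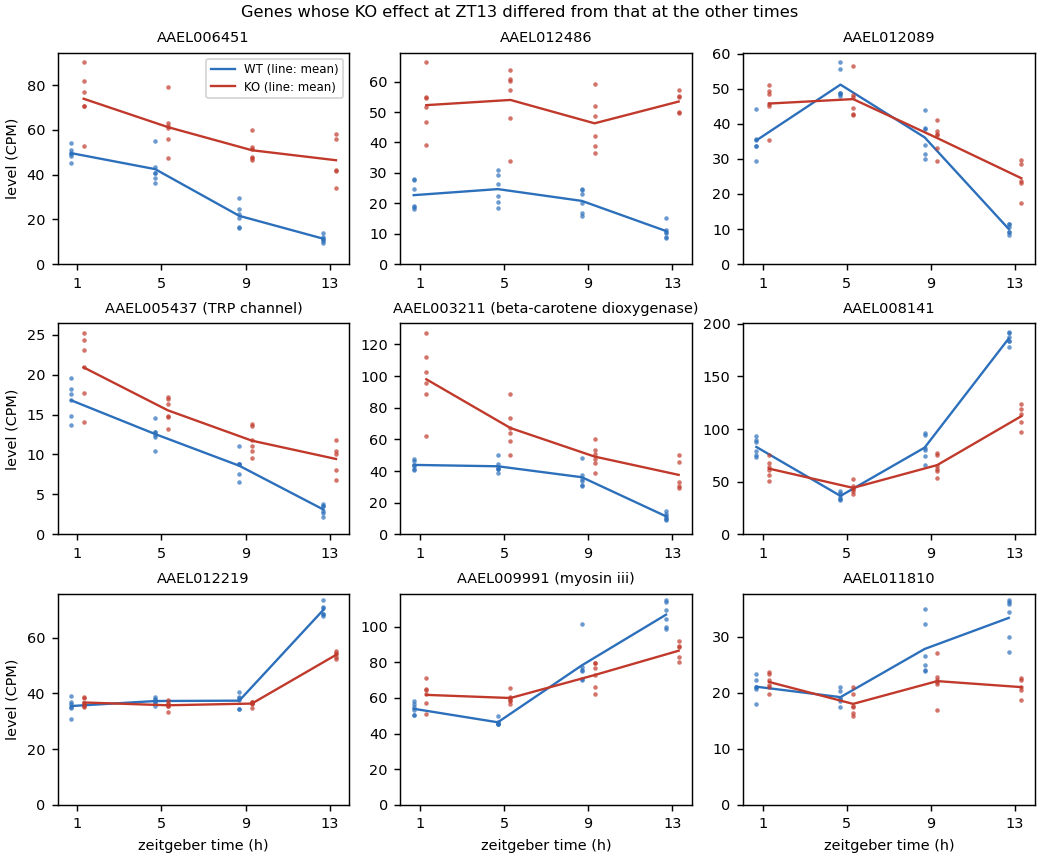
Levels in CPM (vertical axes, from 0) of 9 genes at ZT1, ZT5, ZT9 and ZT13 (horizontal axes, hours), with each library as a point and the group mean as a line, red for KO and blue for WT. AAEL006451, AAEL012089, AAEL005437 and AAEL003211 had their lowest WT mean at ZT13 and were higher in KO, whereas AAEL008141, AAEL012219, AAEL009991 and AAEL011810 were highest in WT at ZT13 and lower in KO.

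The other genes of the fly circadian rhythm pathway were read from a list of 12 genes, Cyc among them, taken from the study's tables of enriched terms. These tables, from which all term lists below also come, hold only genes that the study had called changed at ZT1, ZT5 or ZT13, and 8 of the 12 came from its table of genes lower at ZT13, drawn from these very samples, so their direction is not independent evidence. Term lists below with no member from that ZT13 table rest on the study's calls at ZT1 or ZT5. Those calls came from other pools of the same lines, so the direction of such lists was not free of that choice. All 12 circadian genes were tested. Of these, 8 fell, 1 rose and 3 did not pass, with a median log2 fold change of -0.24 against 0.00 over all genes, and 7 showed no overlap between groups. Among all tested genes 17% fell, 18.6% rose and 18.9% showed no overlap.

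After that of AAEL008141, the next largest difference was that of AAEL011371, a DNA-binding transcription factor. It held 76.1, 75.5, 74.7, 87.9 and 77.2 CPM in KO and between 104 and 122 CPM (median 115) in WT (log2 fold change -0.55 ± 0.05, edgeR adjusted p = 7.20e-06). All its KO libraries were below all WT libraries. AAEL019461, placed in the pathway without a further function, held 101.3, 108, 97.01, 107 and 108 CPM in KO and between 116 and 162 CPM (median 131) in WT (log2 fold change -0.37 ± 0.07, edgeR adjusted p = 0.00176). AAEL019753, listed also under Hedgehog and Hippo signalling, held 215, 200.5, 229, 217 and 191 CPM in KO and between 246 and 274 CPM (median 256) in WT (log2 fold change -0.29 ± 0.05, edgeR adjusted p = 0.000843). Neither of these 2 genes overlapped between groups.

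Smaller decreases were seen for AAEL018126, a serine/threonine phosphatase (266, 234, 293, 284 and 232 CPM in KO, between 310.2 and 319 CPM (median 314) in WT, log2 fold change -0.26 ± 0.06, edgeR adjusted p = 0.0048). The same was true of AAEL005255, a DNA-binding transcription factor (214, 243, 214, 242 and 246 CPM in KO, between 260.3 and 290.4 CPM (median 264) in WT, log2 fold change -0.21 ± 0.05, edgeR adjusted p = 0.00612). In both, KO and WT did not overlap. In the single fit of 47 libraries AAEL018126 missed the threshold (edgeR adjusted p = 0.0527). AAEL007805, an RNA-binding protein, was called lower with overlap (107 to 144 CPM in KO, 135 to 144 in WT, log2 fold change -0.18 ± 0.06, edgeR adjusted p = 0.0354), and it missed the threshold without KO replicate 2, 3, 5 or 6 or WT replicate 2, 3, 4 or 5 (edgeR adjusted p 0.0516 to 0.0892) and in the single fit (0.207).

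The member called higher was AAEL022593, annotated as a dimerizing DNA-binding transcription factor, at 9.23, 9.37, 9.12, 8.77 and 11.1 CPM in KO and between 5.78 and 9.21 CPM (median 6.93) in WT (log2 fold change 0.43 ± 0.12, edgeR adjusted p = 0.0129), with 1 WT library inside the KO range. A serine/threonine kinase, AAEL005238, had a log2 fold change of -0.09 (edgeR adjusted p = 0.118), the exoribonuclease AAEL007189 0.10 (edgeR adjusted p = 0.0811) and the phospholipid-binding AAEL010260 0.16 (edgeR adjusted p = 0.0825), and none of these 3 passed. AAEL005238 passed without WT replicate 6 (edgeR adjusted p = 0.0414) and AAEL010260 without KO replicate 4 (edgeR adjusted p = 0.0181). AAEL007189 passed without WT replicate 1 (edgeR adjusted p = 0.0439) and in the single fit of 47 libraries (edgeR adjusted p = 0.0257).

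**Figure D3:**
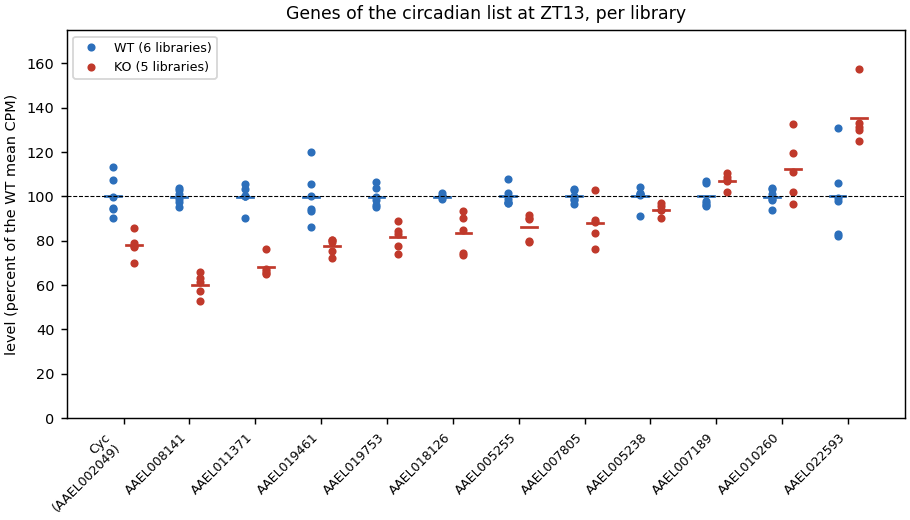
Level of each of the 12 circadian list genes in each library, as a percentage of that gene's WT mean CPM, with 6 WT libraries in blue, 5 KO libraries in red and the group means as bars. AAEL008141 and AAEL011371 lay lowest in KO relative to WT, and AAEL022593 was the called gene with KO above WT.

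Genes of light detection included the largest increase with a known product. Opsins are the light receptors of photoreceptor cells. AAEL005625, a long wavelength sensitive opsin, held 0.833, 7.89, 2.17, 4.63 and 9.104 CPM in KO and between 0 and 0.355 CPM (median 0.195) in WT (log2 fold change 4.45 ± 0.62, edgeR adjusted p = 0.000162). AAEL005621, a second opsin of that class, held 1.700, 11.7, 3.98, 6.36 and 11.1 CPM in KO and between 0.294 and 0.569 CPM (median 0.455) in WT (log2 fold change 3.88 ± 0.46, edgeR adjusted p = 4.06e-05). Neither overlapped between groups, and the KO libraries differed among themselves by more than 5-fold in both. A further one, AAEL006259, rose by less than 1.5-fold, from a median of 7220 CPM (6975 to 8452) in WT to 8835, 11640, 8590, 8719 and 11560 CPM in KO (log2 fold change 0.40 ± 0.09, edgeR adjusted p = 0.00363). AAEL005621 and AAEL005625 were also called higher in KO at each of the other hours, with AAEL005621 at 5.96 ± 4.44 CPM in KO against 0.639 ± 0.317 in WT at ZT1. Not every KO pool was higher there. The lowest KO pool of AAEL005621 held 0.253 CPM at ZT1 and 0.159 at ZT9, below the lowest WT pools (0.284 and 0.404). That of AAEL005625 held 0.0633 CPM at ZT1, below the lowest WT pool (0.122), and 0.19 at ZT9, inside the WT range (0.128 to 0.533). At ZT5 neither gene overlapped between groups. Reads that align in more than 1 place were not counted, so levels of near-identical copies, here and in the other gene families below, are uncertain.

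Over the whole phototransduction list, 5 of 9 tested members rose and 1, myosin iii, fell (median log2 fold change 0.28), beside 18.6% and 17% of all genes. The G-protein gamma subunit AAEL006685, which couples receptors to their effectors, rose from a median of 77.2 CPM (72.4 to 80.4) in WT to 90.2, 108, 84.05, 88.4 and 100.7 CPM in KO (log2 fold change 0.30 ± 0.06, edgeR adjusted p = 0.00219), without overlap. The alpha subunit AAEL010506 had a log2 fold change of 0.01 and did not pass (edgeR adjusted p = 0.922). Of 9 tested sensory perception genes in the study's own table, 7 rose and 1 fell. That table holds genes the study called at hours that included ZT13, so their direction is not independent evidence. The same holds for its tables of odorant binding, receptor signalling and immune genes below.

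The gustatory receptor Gr11 (AAEL011174) held 25.1, 22.2, 18.4, 19.8 and 22.5 CPM in KO and between 13.2 and 15.6 CPM (median 14.3) in WT (log2 fold change 0.59 ± 0.08, edgeR adjusted p = 0.000123), without overlap, and both tested members of the taste list rose. An acetylcholine receptor subunit, AAEL004006, which forms cation channels at synapses, held 7.35, 4.23, 6.26, 7.44 and 4.399 CPM in KO and between 0.983 and 3.41 CPM (median 2.57) in WT (log2 fold change 1.31 ± 0.26, edgeR adjusted p = 0.00184). Odorant binding proteins carry hydrophobic odours in the fluid of sensilla, and D7 proteins of the same fold are secreted with saliva. Of 15 tested members of the odorant binding list 6 rose and none fell, against 18.6% higher over all genes, with a median log2 fold change of 0.24. Without KO replicate 3 the count was 3, in this list and in the next. In the study's own table of odorant binding genes 6 of 15 rose and 1 fell (AAEL019475, annotated as a transcription coregulator of Notch signalling, log2 fold change -0.20 ± 0.06, edgeR adjusted p = 0.0117, and 0.171 in the single fit of 47 libraries).

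OBP22 (AAEL005772) rose most of these, to 12.3, 20.00, 14.04, 13.7 and 19.5 CPM in KO from a median of 7.902 CPM (4.49 to 12.4) in WT (log2 fold change 0.95 ± 0.22, edgeR adjusted p = 0.00478), with the lowest KO library just below the highest WT library. OBP11 (AAEL002587) rose slightly (log2 fold change 0.29 ± 0.09, edgeR adjusted p = 0.0173), whereas OBP12 (AAEL002617, 0.18), OBP13 (AAEL002591, -0.25) and OBP38 (AAEL008013, 0.07) did not pass. Of 6 salivary proteins 3 were called higher, beside 18.6% of all genes. Among them was a short form D7 protein (AAEL006423, 51.4 to 78.6 CPM in KO and 41.7 to 58.2 in WT, log2 fold change 0.39 ± 0.11, edgeR adjusted p = 0.0168). Without KO replicate 3 the D7 gene had an edgeR adjusted p of 0.0523, and with the replicate number as a block 0.0662. The salivary count became 0 without KO replicate 3 or with that block. It was 1 without KO replicate 6 or without WT replicate 1, 3 or 5, and 5 without KO replicate 4.

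Among neuropeptide and hormone signalling genes 3 of 17 tested members rose and none fell, a share near the 18.6% of all genes. These were AAEL000937, with hormone activity and a place in FoxO signalling (6.07 to 8.59 CPM in KO, 3.71 to 4.97 in WT, log2 fold change 0.66 ± 0.12, edgeR adjusted p = 0.00107) and AAEL024251, also with hormone activity (log2 fold change 0.44 ± 0.12, edgeR adjusted p = 0.0106). The last was the neuroendocrine protein 7B2 gene AAEL002055, a helper of prohormone processing (log2 fold change 0.21 ± 0.06, edgeR adjusted p = 0.0115), which missed the threshold in the single fit of 47 libraries (edgeR adjusted p = 0.099). The count was 5 without KO replicate 4 or without WT replicate 2. Corazonin (AAEL005252) had a log2 fold change of -0.53 and did not pass (edgeR adjusted p = 0.202). In the study's table of G protein-coupled receptor signalling 9 of 24 rose. Insect hormone biosynthesis, the pathway of juvenile hormone and ecdysteroids, had 5 of 11 tested members higher and none lower, led by AAEL017302 (20.4 to 38.5 CPM in KO, 12.2 to 17.1 in WT, log2 fold change 0.98 ± 0.16, edgeR adjusted p = 0.000556).

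**Figure D4:**
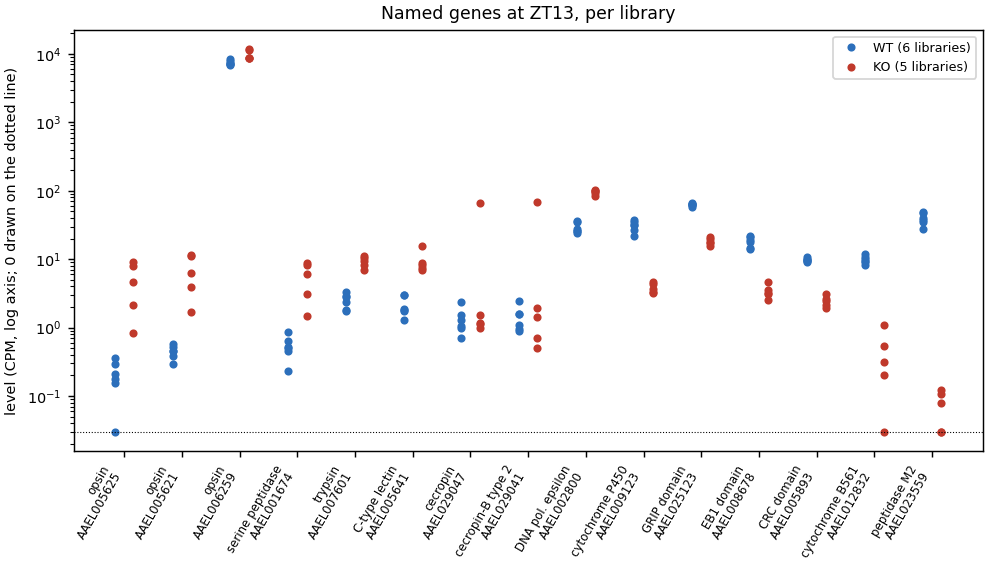
Levels in CPM on a log axis of 15 genes in each of the 6 WT (blue) and 5 KO (red) libraries, with a level of 0 drawn on the dotted line. The opsins, both serine peptidases, DNA polymerase epsilon and the lectin lay higher in every KO library, the 2 cecropins stood out in 1 KO library alone, and the last 6 genes lay lower in every KO library.

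Genes of energy metabolism were higher in KO almost throughout. The respiratory chain passes electrons to oxygen in mitochondria and ATP synthase turns the resulting proton gradient into ATP. Of 40 tested respiratory chain genes 37 rose and none fell (median log2 fold change 0.34, range 0.17 to 0.79). Of 15 ATP synthase genes 13 rose (median 0.35) and of 12 genes of the V-type proton ATPase, which acidifies compartments, 12 rose (median 0.21). These lists hold only genes that the study had called higher at ZT1 or ZT5 in other pools of the 2 lines, so the direction was not free of that choice. The KO and WT libraries did not overlap for 22, 11 and 8 of the members. Among all tested genes 18.6% were called higher and 18.9% did not overlap.

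Single values show how modest these shifts were. AAEL014889, of the respirasome, held 91.3, 118, 91.6, 91.5 and 115 CPM in KO and between 59.7 and 62.5 CPM (median 61.9) in WT (log2 fold change 0.72 ± 0.07, edgeR adjusted p = 8.53e-06). AAEL012740, a lipid-binding part of ATP synthase, held 4689, 5680, 4215, 4655 and 5758 CPM in KO and between 3514 and 3862 CPM (median 3675) in WT (log2 fold change 0.44 ± 0.07, edgeR adjusted p = 0.000592). AAEL022056, of the V-type ATPase, was the member that rose most in its list (9.92 to 12.9 CPM in KO, 4.87 to 9.100 in WT, log2 fold change 0.79 ± 0.14, edgeR adjusted p = 0.00105). None of these 3 overlapped between groups. In AAEL014889 and AAEL012740 the highest levels were those of KO replicates 3 and 6. Members of a list share the same libraries, so they are not separate observations.

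Central carbon pathways shifted the same way. Glycolysis had 10 of 14 tested members higher (median log2 fold change 0.32), carbon metabolism 28 of 36 (median 0.25) and fatty acid metabolism 16 of 25 (median 0.26), with none lower in any of the 3, beside 18.6% higher and 17% lower among all genes. These lists too rest on the study's calls at ZT1 or ZT5 in the same lines, so their direction was not free of that choice. AAEL014842, a phosphatase of the glycolysis and inositol phosphate pathways, was among the genes of lowest p, at 21.99, 24.8, 23.7, 23.5 and 24.04 CPM in KO and between 9.16 and 11.5 CPM (median 10.4) in WT (log2 fold change 1.18 ± 0.07, edgeR adjusted p = 1.21e-07). AAEL001194, which carries fatty acid synthase activities, held 4022, 4522, 3478, 5315 and 4375 CPM in KO and between 2538 and 3218 CPM (median 2836) in WT (log2 fold change 0.61 ± 0.09, edgeR adjusted p = 0.000281). In both, every KO library exceeded every WT library.

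Ribosomal subunit genes were called higher in 19 of 30 tested members (median log2 fold change 0.20), mitochondrial ribosome genes in 4 of 8 (median 0.21) and protein folding chaperones in 11 of 22 (median 0.15), with none lower. Among all genes 18.6% were called higher. The members of these lists had been called by the study at ZT1 or ZT5 in the same lines, which bears on their direction. The chaperone count was 8 without KO replicate 3 or 6 and 5 with the replicate number as a block. The ribosomal count rested on small differences and fell to between 9 and 12 without KO replicate 3, 5 or 6 or without WT replicate 2, 3 or 4. The member with the largest change, AAEL023209 of the mitochondrial ribosome, went from a median of 16.9 CPM (14.1 to 18.1) in WT to 21.6, 22.5, 23.1, 20.5 and 24.2 CPM in KO (log2 fold change 0.42 ± 0.07, edgeR adjusted p = 0.000378).

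Cuticle proteins, which form the exoskeleton with chitin, had 11 of 17 tested members higher and none lower, beside 18.6% and 17% of all genes, with a median log2 fold change of 0.51. A further 6 of the 23 members were below the filter on low counts. The list was drawn from the study's calls at ZT1 or ZT5 in the same lines, so its direction is not independent evidence. AAEL017262 held 128, 193, 125, 123 and 188 CPM in KO and between 70.1 and 91.5 CPM (median 81.1) in WT (log2 fold change 0.90 ± 0.12, edgeR adjusted p = 0.000144). AAEL022261 held 7.08, 15.8, 9.81, 8.65 and 17.8 CPM in KO and between 4.300 and 6.13 CPM (median 4.75) in WT (log2 fold change 1.22 ± 0.22, edgeR adjusted p = 0.000858). Neither overlapped between groups.

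Monooxygenases, a class that includes the cytochrome P450 enzymes of hormone and insecticide metabolism, rose in 13 of 33 tested members and fell in 1 (AAEL007812, log2 fold change -0.63 ± 0.19, edgeR adjusted p = 0.0172), beside 18.6% higher and 17% lower among all genes. AAEL009126 rose from a median of 1.83 CPM (1.397 to 2.097) in WT to 5.27, 5.54, 4.56, 4.63 and 6.96 CPM in KO (log2 fold change 1.57 ± 0.15, edgeR adjusted p = 6.67e-06). AAEL009127 rose from a median of 15.8 CPM (14.1 to 18.4) to 31.5, 45.4, 35.9, 40.3 and 47.5 CPM (log2 fold change 1.32 ± 0.10, edgeR adjusted p = 1.04e-06). By contrast, AAEL009123, a cytochrome P450 outside the list, was among the genes of lowest p and fell from a median of 31.96 CPM (21.5 to 37.3) in WT to 3.16, 3.29, 4.27, 4.59 and 3.68 CPM in KO (log2 fold change -3.004 ± 0.15, edgeR adjusted p = 2.14e-08). Glutathione metabolism had 16 of 25 tested members higher and none lower (median log2 fold change 0.26), led by AAEL006818 at 0.822 to 1.53 CPM in KO and 0.0355 to 0.471 in WT (log2 fold change 1.95 ± 0.39, edgeR adjusted p = 0.00193). The monooxygenase and glutathione lists again rest on the study's calls at ZT1 or ZT5 in the same lines.

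Immune genes were called higher or did not pass, and none was called lower. Toll receptors and the Toll and Imd pathways sense microbes and induce antimicrobial peptides. Of 20 tested immune response genes 14 rose and none fell (median log2 fold change 0.27), and 9 of the 14 genes in the study's immune table rose, beside 18.6% of all genes. The study's immune table drew on its calls at ZT5, ZT9 and ZT13, these samples included. The immune response list drew on its calls at ZT1 or ZT5 in the same lines. Neither direction is independent evidence. A Toll-like receptor, AAEL007619, held 77.8, 88.2, 84.1, 81.4 and 89.1 CPM in KO and between 57.7 and 68.1 CPM (median 62.2) in WT (log2 fold change 0.43 ± 0.05, edgeR adjusted p = 5.49e-05). A Toll pathway gene, AAEL007768, held 11.9, 13.6, 12.1, 13.4 and 11.8 CPM in KO and between 7.61 and 10.98 CPM (median 8.27) in WT (log2 fold change 0.55 ± 0.10, edgeR adjusted p = 0.000855). Neither overlapped. The Toll-like receptor AAEL013441 (0.15, edgeR adjusted p = 0.326) and a peptidoglycan recognition protein, AAEL009474 (0.21, edgeR adjusted p = 0.0705), did not pass, the latter with an edgeR adjusted p of 0.0315 without KO replicate 5.

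A galactose-binding C-type lectin, AAEL005641, of a family that binds microbial sugars, held 15.6, 8.34, 8.83, 7.32 and 6.96 CPM in KO and between 1.299 and 3.004 CPM (median 1.86) in WT (log2 fold change 2.17 ± 0.25, edgeR adjusted p = 3.04e-05), above WT in every KO library and highest in KO replicate 2. The antimicrobial peptides behaved otherwise. The cecropin AAEL029047 held 65.7, 0.986, 1.16, 1.13 and 1.53 CPM in KO and between 0.695 and 2.38 CPM (median 1.16) in WT (log2 fold change 3.46 ± 1.08, edgeR adjusted p = 0.0229). Cecropin-B type 2 (AAEL029041) held 67.5, 1.93, 0.507, 1.45 and 0.716 CPM in KO and between 0.885 and 2.42 CPM (median 1.33) in WT (log2 fold change 3.40 ± 1.09, edgeR adjusted p = 0.026). In both only KO replicate 2 was high. Without that library the log2 fold changes were -0.17 for AAEL029047 and -0.25 for AAEL029041 and neither passed (edgeR adjusted p = 0.692 and 0.643), and AAEL029041 also missed the threshold without WT replicate 5 (edgeR adjusted p = 0.0513). Attacin (AAEL003389) and defensin-A (AAEL003841) were below the filter on low counts, attacin with 1.91, 0.0822, 0.145, 0.121 and 0 CPM in KO.

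KO replicate 2 held 9 tested genes at 1 CPM or more and over 5 times the next highest of the 11 libraries, the 2 cecropins and the 3 genes AAEL026300, AAEL025531 and AAEL021929 among them, against 4 such genes in WT replicate 6, 1 in KO replicate 5 and none in the other 8 libraries. Without KO replicate 2, the counts of the immune response list (14) and of the study's immune table (9) stayed the same.

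Peptidase genes lay at both ends of the range, with AAEL023559 of family M2 among the largest decreases. The serine endopeptidase AAEL001674 held 1.46, 6.12, 8.29, 3.14 and 8.695 CPM in KO and between 0.236 and 0.853 CPM (median 0.512) in WT (log2 fold change 3.30 ± 0.43, edgeR adjusted p = 9.86e-05). Trypsin AAEL007601 held 8.22, 9.28, 10.5, 6.84 and 11.2 CPM in KO and between 1.76 and 3.32 CPM (median 2.58) in WT (log2 fold change 1.87 ± 0.18, edgeR adjusted p = 7.20e-06), and the serine endopeptidase AAEL001693 held 58.5, 78.2, 69.8 and 98.9 CPM in KO replicates 2, 4, 5 and 6, its highest level in replicate 3 just above the last of these, and between 26.4 and 47.4 CPM (median 40.5) in WT (log2 fold change 1.07 ± 0.16, edgeR adjusted p = 0.000233). None overlapped between groups. A putative metalloproteinase, AAEL014516, rose as well (864 to 1160 CPM in KO, 344 to 580.5 in WT, log2 fold change 1.22 ± 0.12, edgeR adjusted p = 8.01e-06). AAEL029029, of metalloendopeptidase annotation, went from a median of 0.207 CPM (0 to 0.362) in WT to 1.94, 2.42, 1.88, 1.17 and 2.05 CPM in KO (log2 fold change 3.28 ± 0.37, edgeR adjusted p = 2.83e-05).

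Of the 10 genes that rose most without overlap, 2 are the low opsins, 1 each is a serine and a metalloendopeptidase, and the others carry no named product. AAEL023251 held 4.27, 3.902, 5.72, 3.58 and 4.399 CPM in KO and between 0.253 and 0.518 CPM (median 0.386) in WT (log2 fold change 3.48 ± 0.19, edgeR adjusted p = 7.72e-08). AAEL017985 (1.93 to 4.59 CPM in KO, 0 to 0.518 in WT), AAEL027813, of protein dimerization annotation (1.49 to 2.06 and 0.0518 to 0.539), AAEL004239 (7.49 to 18.4 and 1.81 to 3.16) and AAEL003832 (4.67 to 37.1 and 0.269 to 3.05) had log2 fold changes of 3.35, 2.68, 2.29 and 2.56. For AAEL003832 the highest KO value was that of replicate 2. Among the genes of lowest p, AAEL017514 held 60.1, 85.4, 73.9, 72.02 and 92.9 CPM in KO and between 13.4 and 23.2 CPM (median 18.00) in WT (log2 fold change 2.09 ± 0.12, edgeR adjusted p = 1.21e-07).

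DNA polymerase epsilon (AAEL002800), which copies the leading strand at replication forks, was 1 of the 2 members of the repair and replication list that rose, to 92.9, 99.5, 82.9, 103 and 98.1 CPM in KO from a median of 26.6 CPM (23.9 to 36.1) in WT (log2 fold change 1.72 ± 0.10, edgeR adjusted p = 1.21e-07), without overlap. A receptor protein tyrosine kinase, AAEL002404, rose from a median of 143 CPM (128 to 213) to 405, 564, 320.2, 434 and 577 CPM (log2 fold change 1.54 ± 0.16, edgeR adjusted p = 1.41e-05), also without overlap.

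Several transcripts were close to absent in KO. AAEL022749 had no read in any KO library and between 2.08 and 3.41 CPM (median 3.27) in WT, which is at least 117-fold lower in KO when 3 reads over the KO group are taken as the floor. On the same floor AAEL027886 (1.31 to 2.22 CPM in WT) was at least 65.8-fold and AAEL023941 (0.8799 to 3.85 CPM in WT) at least 62.7-fold lower. With 3 reads each over the KO group, AAEL022380 gave a WT to KO ratio of 114 (95% counting interval 38.6 to 553), AAEL009562 of 60.9 (95% counting interval 20.5 to 298) and AAEL025347 of 52.4 (95% counting interval 17.6 to 256). AAEL021091 held 0, 0.205, 0.0724, 0.0805 and 0.205 CPM in KO and between 1.76 and 3.27 CPM (median 2.302) in WT (log2 fold change -4.55 ± 0.40, edgeR adjusted p = 3.54e-06). None of these carries a named product, and the intervals cover counting error only. Together with AAEL023559, AAEL010461 and AAEL012832 they are the 10 genes of largest decrease.

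A pair of these transcripts shows that the decrease was not confined to ZT13. AAEL022749 averaged 0, 0 and 0.00696 CPM in KO at ZT1, ZT5 and ZT9, and 2.13, 2.99 and 2.39 CPM in WT. AAEL009562 averaged 0.115, 0.0841 and 0.148 CPM in KO and 0.995, 0.879 and 0.786 CPM in WT.

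Among the other decreases was that of AAEL025123, a GRIP domain protein of the kind that binds the trans-Golgi, at 19.7, 17.4, 15.7, 17.9 and 21.4 CPM in KO and between 58.5 and 66.8 CPM (median 62.8) in WT (log2 fold change -1.78 ± 0.07, edgeR adjusted p = 1.06e-09). AAEL005893, a CRC domain protein (a cysteine-rich DNA-binding domain), fell from a median of 9.695 CPM (9.09 to 10.9) in WT to 3.12, 2.46, 2.64, 2.13 and 1.94 CPM in KO (log2 fold change -1.96 ± 0.12, edgeR adjusted p = 1.21e-07). AAEL008678, with the calponin homology and EB1 domains of microtubule plus-end proteins, fell from a median of 18.4 CPM (13.97 to 21.6) to 3.12, 3.16, 4.63, 3.501 and 2.56 CPM (log2 fold change -2.38 ± 0.16, edgeR adjusted p = 2.36e-07). AAEL018169, without a product, fell from a median of 4.997 CPM (4.17 to 5.25) to 0.902, 0.616, 0.905, 1.17 and 0.716 CPM (log2 fold change -2.47 ± 0.16, edgeR adjusted p = 2.36e-07). AAEL004585 fell from a median of 3.58 CPM (1.85 to 4.53) to 0.382, 0.575, 0.688, 0.322 and 0.818 CPM (log2 fold change -2.71 ± 0.28, edgeR adjusted p = 1.53e-05). In all 5, every KO library lay below every WT library.

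Lists of cell division, repair, silencing and reproduction genes held more members that fell than rose, by small amounts, though for silencing this did not hold outside the table of genes lower at ZT13. The lists below again hold only genes that the study had called, many of them lower at ZT13 in these samples, and the rest came from its tables for ZT1 and ZT5, so their direction was fixed in part. Of 26 tested mitotic cell cycle genes 20 fell and 1 rose (median log2 fold change -0.20), and 7 fell and 1 rose of the 13 not taken from the ZT13 table. In DNA repair and replication 26 of 61 fell and 2 rose (median -0.16), with 18 lower and 2 higher of the 53 not from the ZT13 table. Gene silencing by RNA, which includes the small RNA pathways that restrain transposons in the germ line, had 17 of 25 lower and 2 higher (median -0.18), but 1 lower and 2 higher of the 9 not from the ZT13 table. In the reproduction list 17 of 29 fell and 4 rose (median -0.19), with 6 lower and 4 higher of 17 outside the ZT13 table. Of all tested genes 17% were called lower and 18.6% higher.

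These counts depended on the libraries. Without KO replicate 3 they were 12 mitotic, 14 repair and 11 reproduction genes lower, and the repair count was 17 without KO replicate 6 and 16 without WT replicate 3, while the reproduction genes higher were 2 without KO replicate 2. The largest decreases in the repair list were AAEL013179 of base excision repair (0.205 to 0.434 CPM in KO, 0.353 to 1.17 in WT, log2 fold change -1.10 ± 0.37, edgeR adjusted p = 0.0314), which overlapped and missed the threshold without KO replicate 3, 5 or 6 (edgeR adjusted p 0.057 to 0.083), and AAEL006715 of the Fanconi anemia pathway, at 36.04, 31.6, 31.8, 34.5 and 28.9 CPM in KO and between 43.3 and 52.2 CPM (median 48.2) in WT (log2 fold change -0.55 ± 0.07, edgeR adjusted p = 5.15e-05), which did not.

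Among the reproduction genes AAEL024563, an RNA helicase, held 6.35, 5.22, 5.86, 5.43 and 6.45 CPM in KO and between 8.42 and 10.6 CPM (median 9.99) in WT (log2 fold change -0.73 ± 0.09, edgeR adjusted p = 6.41e-05). In the silencing list AAEL008098, an RNA-binding protein also listed under dorso-ventral axis formation, held 52.6, 34.4, 42.1, 41.4 and 32.8 CPM in KO and between 57.5 and 64.3 CPM (median 60.7) in WT (log2 fold change -0.57 ± 0.09, edgeR adjusted p = 0.00052). In the mitotic list AAEL024260, of sister chromatid segregation, had 9.82 to 15.5 CPM in KO and 14.4 to 19.3 in WT (log2 fold change -0.46 ± 0.11, edgeR adjusted p = 0.00579). The first pair did not overlap between groups. Markers of ovary, fat body and gut were not matched to identifiers here, and whether the share of a tissue moved with these genes was not tested.

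In the signalling lists the direction depended on the table the members came from. Of 36 protein serine/threonine kinases 28 fell and 3 rose (median log2 fold change -0.20), yet 29 of the list came from the table of genes lower at ZT13, and the other 7, from tables of genes higher at ZT1 or ZT5, held the 3 that rose and none that fell. The Wnt list had 20 of 41 lower and 10 higher (median -0.16), FoxO 20 of 38 lower and 6 higher (-0.18), MAPK 21 of 49 lower and 6 higher (-0.11), TGF-beta 10 of 25 lower and 3 higher (-0.10) and ubiquitin mediated proteolysis 23 of 45 lower and 4 higher (-0.15). Outside the table of genes lower at ZT13 the split was 3 lower and 10 higher of 22 for Wnt, 5 and 6 of 22 for FoxO, 5 and 6 of 33 for MAPK, 3 and 3 of 17 for TGF-beta and 6 and 4 of 27 for ubiquitin mediated proteolysis, beside 17% lower and 18.6% higher among all genes. Members that fell thus outnumbered those that rose there in the ubiquitin list alone. The TGF-beta count was 5 without KO replicate 3, and the ubiquitin genes higher were 2 without KO replicate 3 or without WT replicate 1, 2 or 6.

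AAEL008847, of the Wnt list and nervous system development, held 13.4, 13.2, 16.1, 12.5 and 13.4 CPM in KO and 19.1 to 31.04 CPM in WT (log2 fold change -0.90 ± 0.14, edgeR adjusted p = 0.000266), the largest decrease of that list. AAEL025859, of the same list, rose from a median of 1.13 CPM (0.711 to 1.75) in WT to 3.33, 2.42, 4.12, 3.501 and 3.17 CPM in KO (log2 fold change 1.505 ± 0.24, edgeR adjusted p = 0.00039). The kinase AAEL009360, also in the FoxO list, fell from a median of 14.1 CPM (13.3 to 16.4) in WT to 9.99, 7.89, 10.4, 9.58 and 7.47 CPM in KO (log2 fold change -0.65 ± 0.10, edgeR adjusted p = 0.000233). The catalytic subunit of the cAMP-dependent protein kinase, AAEL007293, rose slightly (log2 fold change 0.23 ± 0.05, edgeR adjusted p = 0.0027). None of these 4 overlapped between groups. AAEL025388, a stress response gene of the FoxO and MAPK lists, showed the largest fitted decrease there (log2 fold change -2.99 ± 0.90, edgeR adjusted p = 0.0192), with KO at 0.362 to 0.885 CPM and WT at 0.377 to 21.2 CPM, and WT replicate 5 alone gave the highest value.

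**Figure D5:**
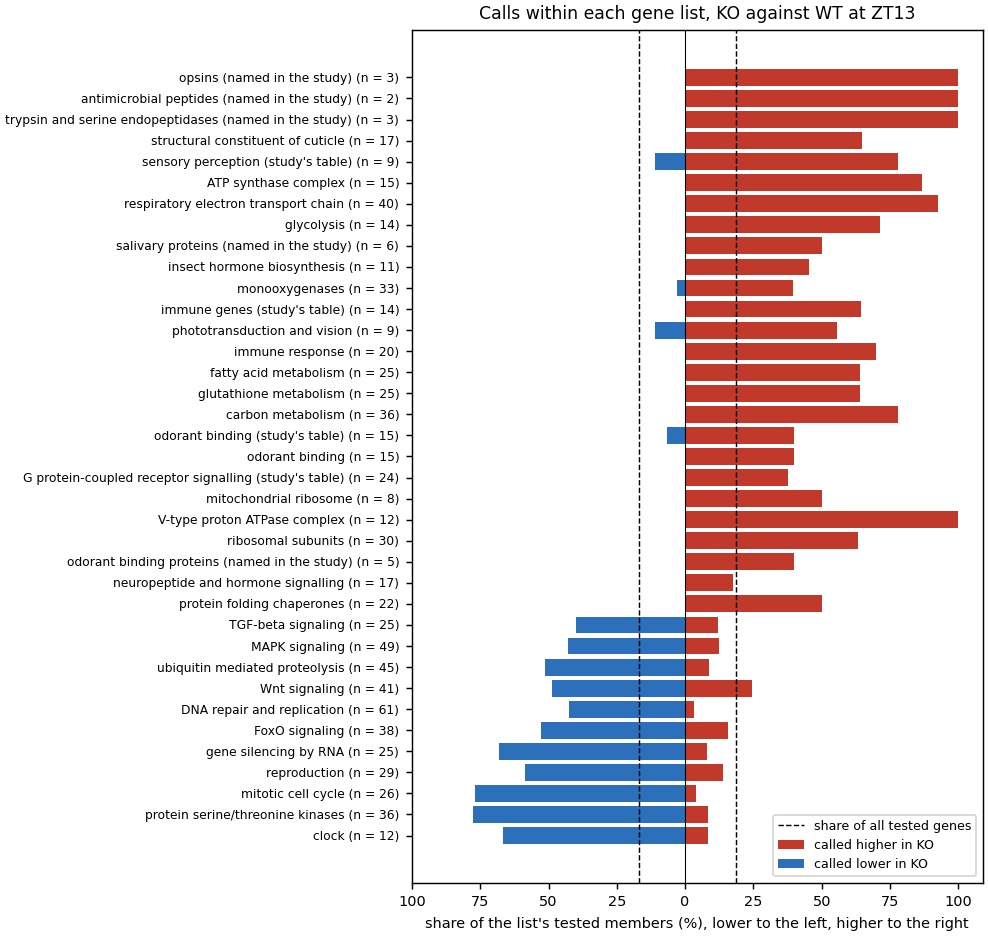
For each gene list, the share in percent of its tested members (n in the label) that was called higher in KO (red, to the right) or lower (blue, to the left), sorted by median log2 fold change, with dashed lines at the shares of all tested genes (18.6% and 17%). Energy metabolism lists lie mostly to the right and the cell cycle, silencing and kinase lists to the left, and the term lists hold only genes that the study had called at 1 or more hours. Of the cell cycle, silencing and kinase lists, 13, 17 and 29 members came from its table of genes lower at ZT13 in these samples. The antimicrobial peptide calls rested on KO replicate 2.

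The study lists 11 genes of interest at ZT13, chosen on these samples. Of them, 8 passed the filter on low counts, 7 called higher and 1, AAEL004585, lower, all without overlap, as given above. The remaining 3 were too low to test. AAEL009356, of unknown function, ranged from 0 to 2.15 CPM in KO and 0 to 0.0449 in WT, AAEL020099 from 0 to 0.108 and 0 to 1.12, and AAEL025654 from 0 to 0.0362 and 0 to 2.25. Of the genes named in the study's text, AAEL000596, a myosin, was called higher with overlap between groups (log2 fold change 0.28 ± 0.08, edgeR adjusted p = 0.013). With the replicate number as a block it missed the threshold (edgeR adjusted p = 0.0517). The receptors AAEL000851 (0.23), AAEL000266 (0.15) and AAEL007372 (0.14) did not pass, of which AAEL000851 had an edgeR adjusted p of 0.0464 without KO replicate 4. The odorant receptor AAEL005680 and the gustatory receptor Gr9 (AAEL000075) stayed below the filter, with no library above 0.452 and 0.1896 CPM.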

How the data were processed

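Poly-A RNA libraries (TruSeq kit) of whole females were trimmed with Trim Galore 0.6.6, aligned with HISAT2 2.2.1 to the AaegL5 genome and counted with HTSeq 0.11.3, per the submitters' processing notes and the study's methods. The authors deposited raw counts per gene. The strand setting of the counting was not given in the sources used here. The 5 closing summary lines of each file (72.1% to 74.7% of all lines' counts in KO, 70.2% to 79% in WT) were left out.

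Counts were tested in edgeR 4.0.16 (R 4.3.3) by the quasi-likelihood test with TMM factors, filterByExpr (minimum count 10) and Benjamini-Hochberg adjustment over all tested genes. KO replicates 2 to 6 were set against WT replicates 1 to 6, and the difference of effects between hours was tested over 47 libraries. Tested on simulated data with 200 genes changed 2-fold, the ZT13 test recovered 177 of 200 among 11462 genes, with 9 others called. Smaller changes, which made up most calls here, and changes in a larger share of genes were not simulated. Alternatives were DESeq2 1.42.0, its size factors, no filter, a single fit, a replicate block, the duplicated library kept, and each library left out. A floor of 3 counts over a group was used for genes with no read, and intervals are 95% exact counting intervals, which cover counting error only.

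The genes named are Cyc, the circadian list, the 10 per direction of largest change (called, without overlap, mean of 1 CPM or more), the 5 per direction of lowest p at ZT13, the 5 per direction of lowest p for the difference between hours among genes also called at ZT13, those the study names, and up to 4 called members per list and direction. Lists come from term tables of the study, and names from the study alone, since none of the 19804 identifiers matched the reference table. The members and lists were chosen with earlier results of these data known. A search of promoters for E-boxes was not run, and no sequence is used here.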

Additional observations from a re-analysis of the deposited data

Results flagged for a closer look

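In 24 of 221 groups of 5 KO or 6 WT libraries, among the genes named above, 1 library stood far from the rest of its group. KO replicate 2 was that library for 8 genes, AAEL003389 at 1.91 CPM (others 0 to 0.145), AAEL003832 at 37.1 CPM (others 4.67 to 8.297), AAEL005641 at 15.6 CPM (others 6.96 to 8.83), AAEL021929 at 113 CPM (others 2.05 to 5.67), AAEL025531 at 65.3 CPM (others 0.614 to 1.61), AAEL026300 at 70.2 CPM (others 0.614 to 2.37), AAEL029041 at 67.5 CPM (others 0.507 to 1.93) and AAEL029047 at 65.7 CPM (others 0.986 to 1.53), with the other 4 KO libraries in parentheses. Among them are cecropins, attacin and a C-type lectin, gene products of insect immunity. The cause was not tested. The rate of about 1 in 20 groups set apart by chance holds for unrelated groups. These groups share the same libraries and many of the genes were chosen by their values here. The count of 24 therefore cannot be set against that rate.

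Other libraries that stood apart were found for AAEL000851 in KO replicate 4 at 9.66 CPM (others 12.7 to 13.2), AAEL005238 in WT replicate 6 at 167 CPM (others 184 to 191), AAEL006818 in KO replicate 6 at 1.53 CPM (others 0.822 to 0.902), AAEL007768 in WT replicate 4 at 10.98 CPM (others 7.61 to 8.54) and AAEL008847 in KO replicate 4 at 16.1 CPM (others 12.5 to 13.4). The same held for AAEL011371 in KO replicate 5 at 87.9 CPM (others 74.7 to 77.2), AAEL011371 in WT replicate 6 at 104 CPM (others 115 to 122), AAEL012486 in WT replicate 2 at 15.2 CPM (others 8.59 to 11.02), AAEL022593 in KO replicate 6 at 11.1 CPM (others 8.77 to 9.37) and AAEL025388 in WT replicate 5 at 21.2 CPM (others 0.377 to 4.399). AAEL000266 was a further case, in WT replicate 4 at 0.796 CPM (others 1.18 to 1.397). At levels set by a few reads, it held for AAEL000075 in WT replicate 2 at 0.1896 CPM (others 0 to 0.0449), AAEL003841 in WT replicate 6 at 0.0518 CPM (others 0), AAEL009356 in WT replicate 5 at 0.0449 CPM (others 0), AAEL020099 in KO replicate 4 at 0.108 CPM (others 0) and AAEL025654 in KO replicate 4 at 0.0362 CPM (others 0).

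For 13 of the genes named above the difference between KO and WT was not the same at ZT13 as over the other hours (edgeR test of the difference, adjusted p below 0.05). On the log2 scale the difference was 0.96 for AAEL003211, 1.21 for AAEL005437, 1.25 for AAEL006451, 1.20 for AAEL012089, 1.14 for AAEL012486, 3.33 for AAEL021929, 4.42 for AAEL025531 and 5.61 for AAEL026300. It was -0.57 for AAEL008141, -0.46 for AAEL009991, -0.18 for AAEL010244, -0.55 for AAEL011810 and -0.36 for AAEL012219. The values of AAEL026300, AAEL025531 and AAEL021929 rested on KO replicate 2.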

How the results depend on the processing

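The count of 4095 called genes was 4333 with DESeq2, 4103 with DESeq2 size factors, 3916 with no filter on low counts and 3645 in a single fit of 47 libraries, and 3149 (without KO replicate 3) to 4480 (without KO replicate 4) when 1 library was left out. It fell to 2129 with the duplicated library kept as KO. The 343 genes past 2-fold became 521 with DESeq2, 579 with no filter and 180 with that library kept, and 318 to 383 with 1 library left out. The 19 genes whose effect differed at ZT13 (12 more positive, 7 more negative) became 49 (17 and 32) with DESeq2, which took in all 19, and 40 with that library kept, of which 16 were shared. They numbered 13 (without KO replicate 2) to 22 (without KO replicate 4) when 1 library was left out. The cause of the differences between tests was not tested. Size factors moved the share of higher calls from 52.3% to 50.7% and the median of all genes from 0.0023 to -0.0031. The first component held 44.1% to 48.2% of variance and Cyc had log2 fold changes of -0.40 to -0.33 when 1 library was left out. Without KO replicate 2 the sign turned for 4 genes, whose log2 fold changes with 1 library left out ran from -0.25 to 3.72 (AAEL029041), -0.17 to 3.76 (AAEL029047), -0.45 to 2.75 (AAEL021929) and -0.40 to 3.69 (AAEL025531).

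KO and WT libraries share replicate numbers 2 to 6, but libraries of 1 number did not deviate together (r between -0.05 and 0.04), and no KO library correlated best with the WT library of its number. With the replicate number as a block, 3033 genes were called, 318 past 2-fold, against 3718 in the same 10 libraries without it, and 15 (7 more positive, 8 more negative) differed at ZT13 from the other hours. Depth limits calls for genes under about 1 CPM, where counts are low.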
